A study of Mus musculus with 6 samples.

Results

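Striatal projection neurons are the main output cells of the striatum, and 9 genes they are known for were followed here across mouse brain RNA libraries. The genes were taken by symbol from the count table as a given list, 1 row per Ensembl gene: Drd1 and Tac1 for the direct pathway, Drd2, Penk and Adora2a for the indirect pathway, and Pde10a, Ppp1r1b, Rgs9 and Adcy5, which both pathways use. All 9 were found among 22584 genes and passed the filter on low counts, with 102 to 15749 counts per gene and library. The samples were brain tissue of wild-type (WT) mice, with RNA extracted by TRIzol, a phenol and guanidine reagent, in 3 control libraries (labelled Ctrl) and by the AllPrep DNA/RNA/Protein kit, which recovers several kinds of molecule from 1 lysate, in 3 others. The labels give no strain, age, brain region or treatment, and do not say whether libraries came from separate or pooled animals, so the tests compare these libraries and their spread may be technical. Library totals ran from 36395330 to 50937858 counts.

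In the striatum, dopamine acts on 2 populations of inhibitory projection neurons. Direct pathway neurons carry the D1 receptor, which raises cyclic AMP through adenylyl cyclase, and release substance P made from the Tac1 precursor. Indirect pathway neurons carry the D2 receptor, which lowers cyclic AMP, and an adenosine receptor, encoded by Adora2a, which raises it, and release enkephalin made from the Penk precursor. These genes are not confined to the striatum: Drd2 is also known in midbrain dopamine neurons, and Penk and Tac1 in neurons of several other brain regions.

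The sequence just before the transcription start is shown for the dopamine receptor genes and for Tac1, the members whose ratios within each library are compared below. RefSeq promoters were matched for 6 of the 9 genes (8 windows, Drd1 and Pde10a with 2 starts each), and none was matched for Adora2a, Penk and Ppp1r1b. Each line gives the 250 bases before the start, 5′ to 3′ on the gene's strand, from RefSeq on GRCm38.p6. Capitals mark matches on either strand to a GC box (GGGCGG), a cyclic AMP response element (TGACGTCA), its shorter variant (TGCGTCA), an E-box (CACGTG) or a TATA box (TATAAA).
Drd1, start farther upstream, chr13:54055659-54055908, minus strand: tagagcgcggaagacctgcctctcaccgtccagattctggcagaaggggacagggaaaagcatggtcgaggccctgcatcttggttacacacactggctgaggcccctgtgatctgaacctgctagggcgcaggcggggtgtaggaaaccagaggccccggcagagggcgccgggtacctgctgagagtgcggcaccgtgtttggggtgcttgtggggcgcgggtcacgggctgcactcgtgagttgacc
Drd1, second start, chr13:54054781-54055030, minus strand: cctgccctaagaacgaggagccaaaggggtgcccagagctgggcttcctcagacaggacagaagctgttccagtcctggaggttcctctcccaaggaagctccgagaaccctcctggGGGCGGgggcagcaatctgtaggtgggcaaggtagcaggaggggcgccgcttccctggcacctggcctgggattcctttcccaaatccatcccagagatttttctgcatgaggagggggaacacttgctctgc
Drd2, chr9:49340153-49340402, plus strand: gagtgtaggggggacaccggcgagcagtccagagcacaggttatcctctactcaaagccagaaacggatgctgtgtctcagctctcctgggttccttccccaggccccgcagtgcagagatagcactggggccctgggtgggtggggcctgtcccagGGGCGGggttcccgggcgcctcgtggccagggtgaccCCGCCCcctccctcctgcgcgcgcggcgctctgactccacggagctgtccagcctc
Tac1, chr6:7554811-7555060, plus strand: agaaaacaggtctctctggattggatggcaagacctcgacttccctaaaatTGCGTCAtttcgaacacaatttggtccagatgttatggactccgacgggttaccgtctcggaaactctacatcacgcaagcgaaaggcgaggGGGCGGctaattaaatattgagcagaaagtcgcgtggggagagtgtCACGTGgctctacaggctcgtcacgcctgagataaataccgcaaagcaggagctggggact
The Tac1 window held the shorter response element 199 bases before the start, an E-box 61 bases before it and a GC box. The TGCGTCA variant was found in 1.75% of all 32851 promoter windows of this length, the E-box in 6.02%, and the full element TGACGTCA, found in 1.55%, was in no member's window. GC boxes, in 32.7% of all windows, were in Drd2 (both strands), in the second Drd1 window, and in windows of Adcy5, Pde10a and Rgs9. The TATAAA motif, in 12.4% of all windows, was found in Rgs9 alone. G and C made up 51.2% of the Tac1 window and 68.8% of the Drd2 window, against a median of 52.4% over all windows. These matches describe letters, not bound sites.

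The direct pathway genes were lowest in TRIzol replicate 3 and higher on average after AllPrep, but the libraries of the 2 methods overlapped. Values are CPM, counts scaled to library size after TMM normalization, which corrects for differences in library make-up. Drd1 (ENSMUSG00000021478), the D1 dopamine receptor, had 42.0, 21.7 and 8.0 CPM in TRIzol replicates 1, 2 and 3, and 58.7, 57.4 and 23.9 CPM in AllPrep replicates 1, 2 and 3. AllPrep replicates 1 and 2 were above every TRIzol library, while AllPrep replicate 3 lay below TRIzol replicate 1. The Drd1 means were 46.6 ± 19.7 CPM in AllPrep and 23.9 ± 17.1 CPM in TRIzol (SD, n = 3 each), with a log2 fold change of 0.97 (AllPrep relative to TRIzol, SE 0.57) that did not pass (Benjamini-Hochberg adjusted p = 0.32, quasi-likelihood test in edgeR). Tac1 (ENSMUSG00000061762), the substance P precursor whose promoter is shown above, had 44.2, 24.3 and 9.93 CPM in TRIzol replicates 1 to 3 and 65.6, 44.5 and 26.8 CPM in AllPrep replicates 1 to 3. AllPrep replicate 1 alone stood clearly above the TRIzol libraries, and AllPrep replicate 2 was level with TRIzol replicate 1. Its log2 fold change was 0.81 (SE 0.51, adjusted p = 0.36 in edgeR). In bulk tissue, fewer cells of a type and less RNA per cell cannot be told apart.

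Of the 9 genes, Adora2a and Drd2, receptors of the indirect pathway, varied most between libraries. Adora2a (ENSMUSG00000020178), the adenosine receptor of the indirect pathway, had 33.6, 14.5 and 2.24 CPM in TRIzol replicates 1 to 3 and 50.4, 55.9 and 11.3 CPM in AllPrep replicates 1 to 3. Its highest library was 25.0 times its lowest, and within TRIzol alone replicate 1 was 15.0 times replicate 3, where the value rests on 102 counts. The log2 fold change between methods was 1.23 (SE 0.87, adjusted p = 0.41 in edgeR), with AllPrep replicate 3 below both TRIzol replicates 1 and 2. Drd2 (ENSMUSG00000032259), the D2 dopamine receptor, had 21.6, 15.2 and 3.33 CPM in the TRIzol libraries and 29.6, 35.2 and 7.18 CPM in the AllPrep libraries, in the same order. It had the largest adjusted p of the 9 genes (edgeR adjusted p = 0.49) at a log2 fold change of 0.84 ± 0.71 (SE), and AllPrep replicate 3 again lay under 2 TRIzol libraries. Penk (ENSMUSG00000045573), the enkephalin precursor, had 158, 66.7 and 31.1 CPM in TRIzol and 229, 232 and 96.1 CPM in AllPrep. Here AllPrep replicate 3 was above TRIzol replicate 2 but below TRIzol replicate 1. Its means were 185 ± 77.4 and 85.4 ± 65.7 CPM (SD, n = 3 each), a 2.17-fold difference that did not pass (adjusted p = 0.26 in edgeR).

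The 4 signalling genes shared by both pathways followed the same libraries, Adcy5 with a narrower range. Ppp1r1b (ENSMUSG00000061718), a phosphatase inhibitor that is switched on by cyclic AMP signalling downstream of dopamine, had 126, 59.6 and 23.1 CPM in TRIzol replicates 1 to 3 and 152, 192 and 61.1 CPM in AllPrep replicates 1 to 3. Pde10a (ENSMUSG00000023868), the phosphodiesterase that degrades cyclic nucleotides in these neurons, had 220, 136 and 72.7 CPM in TRIzol and 321, 418 and 132 CPM in AllPrep. Their highest libraries were 8.31 and 5.75 times their lowest, and in both genes AllPrep replicate 2 was the highest. Rgs9 (ENSMUSG00000020599), which shortens G protein signals from dopamine and opioid receptors, had 66.1, 37.1 and 10.3 CPM in TRIzol and 91.4, 95.7 and 26.3 CPM in AllPrep. Its AllPrep replicate 3 lay below TRIzol replicates 1 and 2. Adcy5 (ENSMUSG00000022840), the main adenylyl cyclase of the striatum, had 237, 188 and 125 CPM in TRIzol and 356, 368 and 227 CPM in AllPrep. The highest Adcy5 library was only 2.94 times the lowest, and of the TRIzol libraries only replicate 1 was above AllPrep replicate 3. Log2 fold changes were 0.96 for Ppp1r1b, 1.02 for Pde10a and 0.91 for Rgs9 (adjusted p = 0.36, 0.23 and 0.43 in edgeR). Adcy5 had the smallest fold change of the 9 genes and the smallest p, 0.79 (SE 0.26, adjusted p = 0.11 in edgeR).

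**Figure D1:**
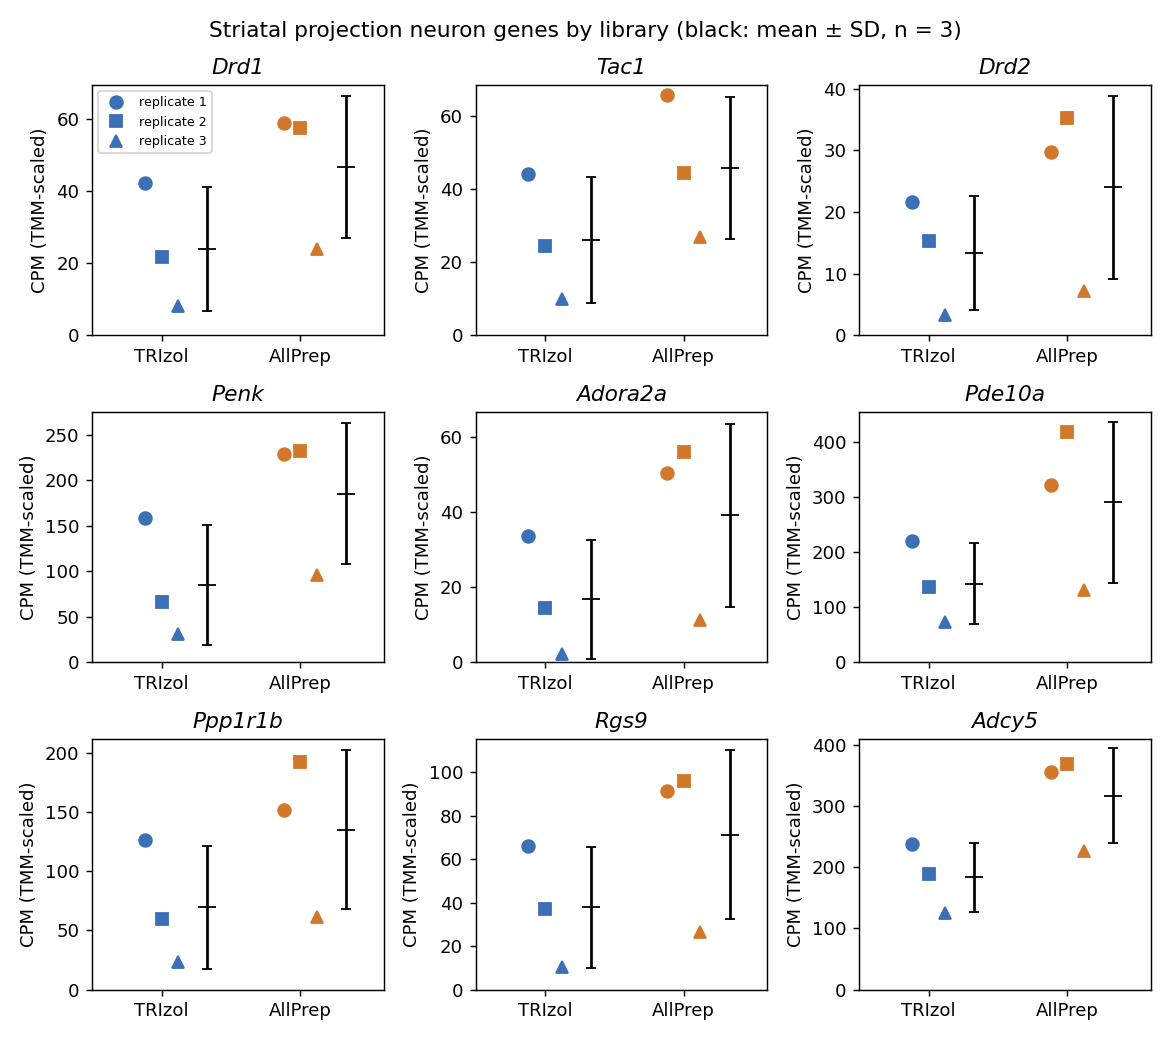
Expression of each gene in CPM (TMM-scaled, linear axis from 0) in the 3 TRIzol libraries (blue) and 3 AllPrep libraries (orange); marker shape gives the replicate number, and black bars are mean ± SD. TRIzol replicate 3 was the lowest library for all 9 genes, and TRIzol replicate 1 was above AllPrep replicate 3 for all 9.

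No member passed the test between methods, and the spread within each method was large. All 9 log2 fold changes were positive, from 0.79 to 1.23 with a median of 0.96, against a median of -0.01 over all 16325 tested genes, of which 48.5% were positive. At an adjusted p below 0.05, 0 of 9 genes passed in edgeR, against 3.80% of all tested genes (2.52% higher and 1.28% lower in AllPrep). At an unadjusted p below 0.05, 1 of 9 passed, Adcy5, against 25.8% of all tested genes. DESeq2 called Adcy5 (adjusted p = 0.012) and no other member, where it called 12.8% of all tested genes, and limma-voom called 0 of 9 members and 3.94% of all tested genes. The methods' libraries overlapped for all 9 genes, whereas they did not overlap for 33.1% of all tested genes. The 95% interval of the difference, from limma-trend, ran from 0.19 to 1.41 (log2) for Adcy5. It included 0 for the other 8 genes, as for Penk (-0.04 to 2.67), Drd1 (-0.23 to 2.53), Drd2 (-0.94 to 2.78) and Adora2a (-0.70 to 3.93), so neither equal levels nor a several-fold difference lay outside it. The median log2 fold change of the 9 genes was 0.55 without TRIzol replicate 3 and 1.59 without TRIzol replicate 1.

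**Figure D2:**
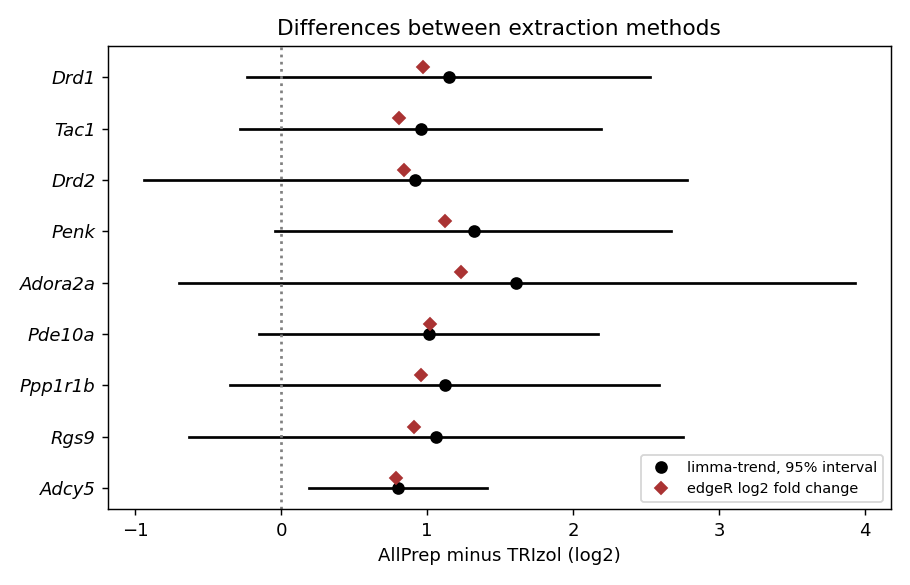
Difference between AllPrep and TRIzol (log2, horizontal axis) for each of the 9 genes: black points and bars are limma-trend estimates with 95% intervals, and red diamonds are edgeR log2 fold changes. The interval excluded 0 for Adcy5 alone.

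The genes moved between libraries as a block. On the scale of log2 deviation from each gene's own mean over the 6 libraries, the mean of the 9 genes was 0.51, -0.34 and -1.83 in TRIzol replicates 1 to 3 and 1.01, 1.09 and -0.44 in AllPrep replicates 1 to 3. All 9 genes were above their own mean in TRIzol replicate 1 and in AllPrep replicates 1 and 2. In TRIzol replicate 3 and AllPrep replicate 3 all 9 were below it, and in TRIzol replicate 2 only Drd2 was above (0.10). Pearson's r between the log2 CPM of 2 members over the 6 libraries ran from 0.892 to 0.996 over 36 pairs (median 0.968), a description only, as all 9 genes were measured in the same 6 libraries. The range from the lowest to the highest library (log2 CPM with a prior count of 2) had a median of 2.89 for the 9 genes, against 0.42 for the 11648 tested genes with a mean of at least 5 CPM. Of those genes, 0.137% had a range as wide as that of Adora2a (4.62), 0.455% as wide as that of Drd1 (2.87) and 2.72% as wide as that of Adcy5 (1.56). The SD within methods had a median of 1.00 (log2) over the 9 genes and 0.13 over the same background.

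**Figure D3:**
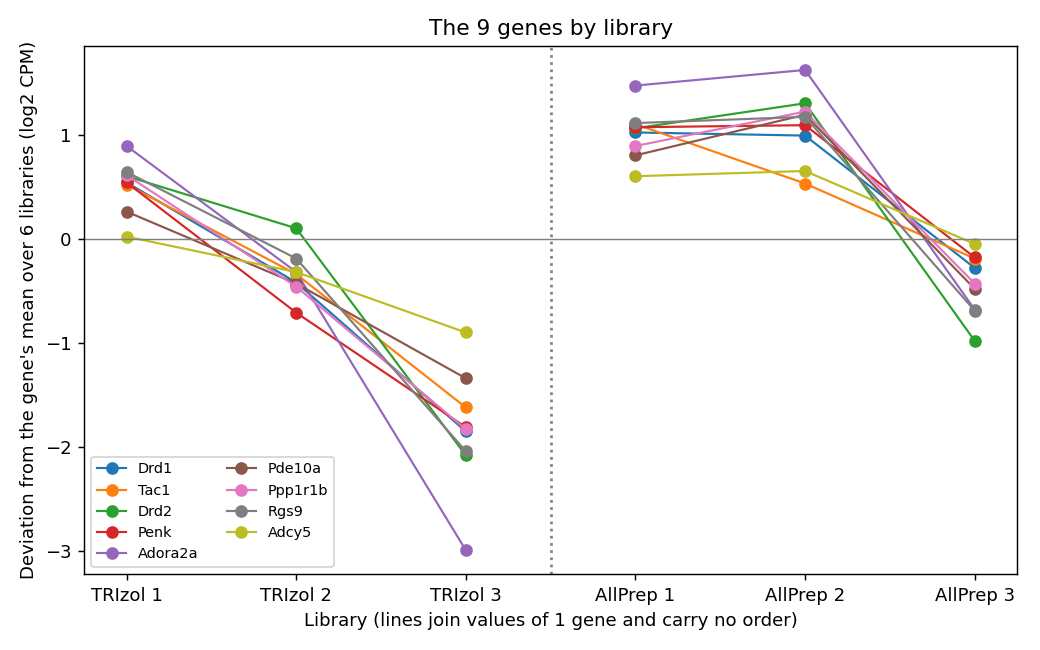
Deviation of each gene's log2 CPM from its mean over the 6 libraries (vertical axis), by library, with 1 colour per gene and lines only joining the values of a gene within a method. The curves lie close together, with Adora2a widest (-2.99 to 1.62) and Adcy5 narrowest (-0.90 to 0.65).

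The balance between pathways was compared as ratios of counts within each library, which do not depend on library scaling. Drd1 counts were 1.95, 1.42 and 2.40 times Drd2 counts in TRIzol replicates 1 to 3 and 1.98, 1.63 and 3.33 times in AllPrep replicates 1 to 3. The highest ratios were in replicate 3 of each method, the library with the least of both receptors in that method, and the groups overlapped. The exact 95% counting interval was 2.96 to 3.76 in AllPrep replicate 3 and 1.52 to 1.75 in AllPrep replicate 2, so intervals of libraries of 1 method did not overlap. Read pairs are not independent molecules, and these intervals cover counting error only. If each read of a pair was counted, they are too narrow even for that. The mean ratio was 2.31 ± 0.896 in AllPrep and 1.92 ± 0.489 in TRIzol (SD, n = 3 each). An exact permutation test on the log2 ratios, two-sided, gave p = 0.6, where 0.1 is the smallest that 3 against 3 allows. Without AllPrep replicate 3 the difference turned from 0.23 to -0.07 on the log2 scale.

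For the peptide precursors, Tac1 counts were 0.279, 0.364 and 0.319 of Penk counts in TRIzol replicates 1 to 3 and 0.287, 0.192 and 0.279 in AllPrep replicates 1 to 3. AllPrep replicate 2 was apart at the low end, where Tac1 deviated by 0.53 (log2) from its mean and Penk by 1.09. The means were 0.253 ± 0.0528 in AllPrep and 0.321 ± 0.0427 in TRIzol (SD, n = 3 each). The exact permutation test on the log2 ratios, two-sided, gave p = 0.3. Adjusted by Benjamini-Hochberg over the 2 ratios tested, p was 0.6 for each. The difference, -0.36 on the log2 scale, was -0.17 without AllPrep replicate 2.

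Inside the indirect pathway, Drd2 counts were 0.642, 1.05 and 1.49 of Adora2a counts in the TRIzol libraries, in replicate order. They were 0.588, 0.629 and 0.635 in the AllPrep libraries. The counting intervals of the AllPrep libraries and TRIzol replicate 1 overlapped, while TRIzol replicates 2 and 3 were higher. In TRIzol replicate 2, 6 of the 7 tested midbrain dopamine markers had their highest value, while the other, Nr4a2, had its lowest there (36.6 CPM, against 53.4 to 80.5 CPM in the other 5 libraries). Th, the enzyme that makes the dopamine precursor, had 61.0 CPM there against 2.22 and 1.03 CPM in TRIzol replicates 1 and 3, and Slc6a3, the dopamine transporter, 95.8 against 0.547 and 0.219 CPM. Th and Slc6a3 were named after their values were seen, and in AllPrep replicates 1 to 3 Slc6a3 had 42.9, 3.32 and 1.14 CPM. Over the 7 tested genes of the midbrain list (2 of 9, Pitx3 and Foxa2, were too low), the summed level ran from 128 to 555 CPM in TRIzol and from 132 to 271 CPM in AllPrep. Their part in the Drd2 values was not tested.

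A summary index, the mean log2 CPM of Drd1 and Tac1 minus that of Drd2, Penk and Adora2a, was -0.17, -0.10 and 0.53 in TRIzol replicates 1 to 3 and -0.17, -0.61 and 0.35 in AllPrep replicates 1 to 3. It was highest in replicate 3 of each method, libraries where all 9 genes were below their means. The index averaged -0.14 ± 0.48 in AllPrep and 0.09 ± 0.38 in TRIzol (SD, n = 3 each), a difference of -0.23 that is smaller than the SD within methods of 0.43.

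**Figure D4:**
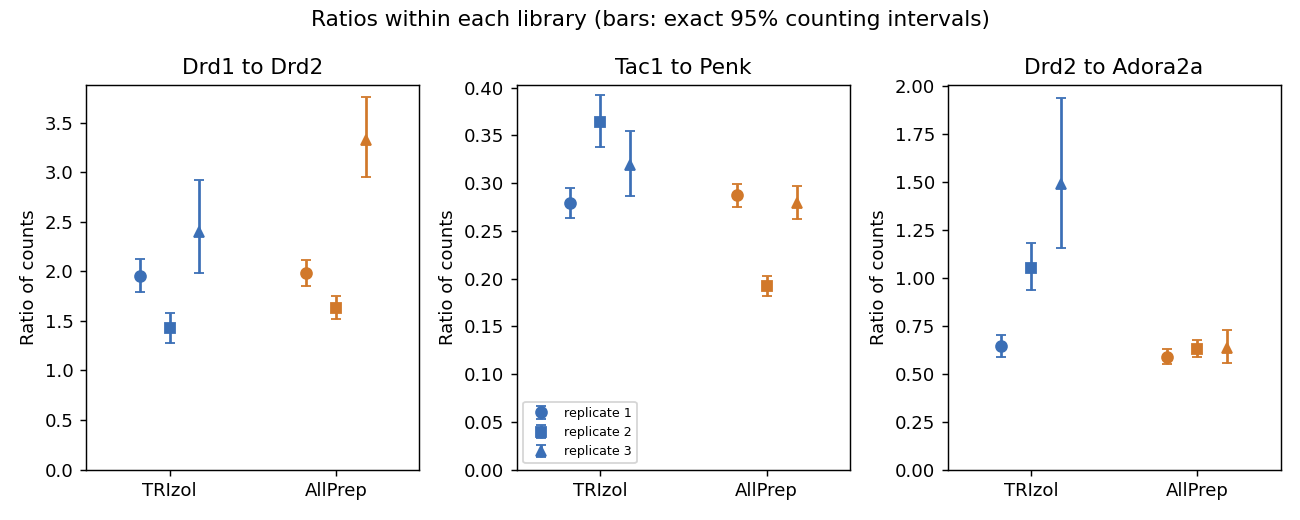
Ratio of counts (linear axis from 0) of Drd1 to Drd2, Tac1 to Penk and Drd2 to Adora2a in each TRIzol (blue) and AllPrep (orange) library, with exact 95% counting intervals; marker shape gives the replicate number. Drd1 to Drd2 was highest in AllPrep replicate 3 (3.33), Tac1 to Penk lowest in AllPrep replicate 2 (0.192), and Drd2 to Adora2a highest in TRIzol replicate 3 (1.49).

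Levels of different genes were compared only per length, as CPM per kilobase of annotated exon. Penk was the most abundant, with 113 ± 47.4 CPM per kilobase in AllPrep and 52.3 ± 40.2 in TRIzol (SD, n = 3 each), and was above the next gene in 6 of 6 libraries. Ppp1r1b (46.1 ± 22.9 and 23.7 ± 17.8) and Adcy5 (44.1 ± 10.9 and 25.6 ± 7.83) changed places, with Ppp1r1b higher in 3 of 6 libraries. Pde10a (22.6 ± 11.3 and 11.1 ± 5.74) lay below them and above Tac1 in 6 of 6 libraries. Tac1, Drd1, Adora2a, Rgs9 and Drd2 followed, between 9.42 and 13.4 CPM per kilobase in AllPrep and between 5.26 and 7.69 in TRIzol. Neighbours in this last group held their order in 3 to 5 of 6 libraries, so their levels were not separated beyond their spread.

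Further signalling genes, transcription factors and other genes known from striatal neurons mostly had positive fold changes, and 1 passed. Of 66 such genes in 6 lists, 65 were tested, of which 53 had positive and 12 negative log2 fold changes (median 0.35). Over all tested genes 48.5% were positive and 3.80% passed in edgeR. Tacr1, the receptor for substance P, rose from 7.28 ± 1.62 to 15.1 ± 3.11 CPM (SD, n = 3 each), a log2 fold change of 1.05 ± 0.21 (SE; edgeR adjusted p = 0.041). It had 8.53, 7.86 and 5.46 CPM in TRIzol replicates 1 to 3 and 18.5, 14.4 and 12.4 CPM in AllPrep replicates 1 to 3, with no overlap. The call was lost without any 1 of the 6 libraries (log2 fold change 0.88 to 1.18, edgeR adjusted p from 0.061 to 0.113). Tacr1 was the 1 gene called among 18 tested receptor and G protein genes (13 positive, median 0.39). Gnal, the G protein alpha subunit that couples D1 and adenosine receptors to adenylyl cyclase, missed the threshold (adjusted p = 0.093) with means of 292 ± 74.2 CPM in AllPrep and 191 ± 14.9 CPM in TRIzol, as did Rgs7bp, which anchors Rgs proteins at the membrane (log2 fold change 0.14). Drd3, the D3 receptor, was too low to test.

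Among 21 genes of cyclic nucleotide and phosphatase signalling, 0 passed (16 positive, median 0.19). Prkaca, a catalytic subunit of protein kinase A, had 149 ± 2.39 against 131 ± 1.58 CPM, and Ptpn5, a striatum-enriched tyrosine phosphatase, 207 ± 27.5 against 165 ± 8.09 CPM (adjusted p = 0.11 for each in edgeR). The most abundant, Ppp3ca, a calcineurin subunit, and Prkar1b, a regulatory subunit of protein kinase A, differed little: Ppp3ca had a log2 fold change of 0.02, and Prkar1b 902 ± 32.7 CPM in AllPrep and 902 ± 95.2 CPM in TRIzol. Of 12 transcription factors of projection neurons, 0 passed (10 positive, median 0.54): Bcl11b, needed for their maturation, had 107 ± 9.90 against 65.3 ± 20.2 CPM (adjusted p = 0.081), Six3 10.3 ± 5.24 against 4.71 ± 0.408 CPM, and Meis2 a log2 fold change of 0.23.

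Further genes of each pathway gave similar medians. Of 6 other direct pathway genes 5 were positive (median 0.68), with Pdyn, the dynorphin precursor, at 40.6 ± 17.8 against 20.5 ± 7.99 CPM and Chrm4, a muscarinic receptor that opposes D1 signalling, at 29.0 ± 4.31 against 22.0 ± 3.74 CPM. All 4 other indirect pathway genes were positive (median 0.74), with Gpr52 at 14.0 ± 2.26 against 7.10 ± 3.39 CPM, Sp9, a transcription factor of indirect pathway neurons, at 5.80 ± 0.754 against 3.39 ± 1.22 CPM, and Grik3 at a log2 fold change of 0.30. All 14 other striatum-enriched genes were positive (median 0.63). Ankrd63 had the smallest p of them, with 53.7 ± 5.48 against 21.2 ± 9.89 CPM (adjusted p = 0.059 in edgeR), followed by Gprin3 (adjusted p = 0.074). The abundant Pde1b, a calcium-dependent phosphodiesterase, and Scn4b, a sodium channel subunit, had 0.44 and 0.25. None of these 3 lists had a gene past the threshold.

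Genes with the most similar pattern were ranked by Pearson's r, over the 6 libraries, between their log2 CPM and the mean of the 9 genes, among 11420 genes with a mean of at least 5 CPM, leaving out the members and unnamed gene models. The highest were Ufsp1 (0.993), Lmo2 (0.989), Itfg1 (0.988), Sh3rf2 (0.983), Foxp1 (0.977), Gpr6 (0.977) and Syndig1l (0.976). Pearson's r takes no account of the size of a change: Itfg1 varied only 1.14-fold between its lowest and highest library and Ufsp1 1.47-fold, while Syndig1l varied 5.33-fold and Sh3rf2 44.5-fold. Sh3rf2 had 7.77, 3.40 and 0.263 CPM in TRIzol replicates 1 to 3 and 11.4, 11.7 and 2.88 CPM in AllPrep replicates 1 to 3. The order of the 6 libraries was the same as for Adora2a. Foxp1, Gpr6 and Syndig1l were already in the pathway lists.

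Markers of other cells and regions did not all move alike between libraries, and the striatal interneuron list had a mean pattern much like that of the 9 genes. The 8 genes listed for striatal interneurons had mean log2 deviations of -0.05, -0.17 and -1.37 in TRIzol replicates 1 to 3 and 1.25, 0.92 and -0.59 in AllPrep replicates 1 to 3. Their mean, like that of the 9 genes, was lowest in replicate 3 of each method, but single genes of the list differed. The labels give no brain region, so the list name does not place their RNA in the striatum. The cholinergic genes Chat, Slc5a7, Slc18a3 and Lhx8 were lowest in replicate 3 of each method, as the projection neuron genes were, whereas Sst and Nos1 were highest in AllPrep replicate 3 (167 and 206 CPM). None of the 8 passed (7 positive, median log2 fold change 1.18), with Sst at 132 ± 30.2 against 92.6 ± 14.2 CPM and Nos1 at 141 ± 57.6 against 60.5 ± 14.2 CPM. Pvalb went the other way, with 28.5 ± 11.2 CPM in AllPrep against 56.0 ± 3.24 CPM in TRIzol (log2 fold change -0.98). TRIzol replicate 3, the lowest for all 9 genes, was the highest library for the 6 thalamic genes (mean deviation 1.72, against -0.87 and -0.32 in TRIzol replicates 1 and 2). Prkcd, abundant in thalamus, had 317 CPM in that library and 11.9 to 102 CPM in the other 5. The mean deviation of the 6 hippocampal genes was also highest there (1.25, against -1.05 and -0.60). Of these, 5 had their highest value in TRIzol replicate 3, while Fibcd1 had its lowest (11.1 CPM, against 15.1 to 71.8 CPM in the other 5 libraries). AllPrep replicate 3, the other low library, had -0.98 for thalamic and 0.36 for hippocampal genes, and the lowest value for the 7 oligodendrocyte genes (-0.77). The mean deviation of the 9 cortical glutamatergic genes lay between -0.24 and 0.27 in all 6 libraries, while single genes moved more and in both directions (median range from lowest to highest library 0.90 on the log2 scale). The part of these differences in the values of the 9 genes was not tested.

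Summed levels of these lists, in TRIzol and then AllPrep, ran from 222 to 262 and 322 to 422 CPM for striatal interneurons, 112 to 658 and 117 to 263 CPM for thalamus, 50.0 to 128 and 72.7 to 116 CPM for hippocampus and 1276 to 1629 and 1130 to 1624 CPM for cortex. Oligodendrocyte genes summed to 5938 to 7002 and 3250 to 5750 CPM. The 9 projection neuron genes summed to 286 to 949 CPM in TRIzol and 612 to 1498 CPM in AllPrep. Genes past the threshold in lists of other cells were Rasgrf2 of 9 cortical genes, Slc1a3 of 6 astrocyte genes, Oxt, Sim1 and Hdc of 5 tested hypothalamic genes and 5 of 6 choroid plexus genes, all higher in AllPrep; of these, Ttr alone passed with each of the 6 libraries left out in turn. Past the threshold were 0 of 6 thalamic, 0 of 6 hippocampal, 0 of 5 tested cerebellar, 0 of 2 tested olfactory bulb, 0 of 7 tested midbrain, 0 of 7 oligodendrocyte and 0 of 5 microglial genes. The choroid plexus and hypothalamic lists separated the methods in every library (mean deviations from 0.86 to 2.11 in AllPrep and from -2.0 to -0.98 in TRIzol), unlike the 9 genes, which were below their means in AllPrep replicate 3 and above them in TRIzol replicate 1.

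**Figure D5:**
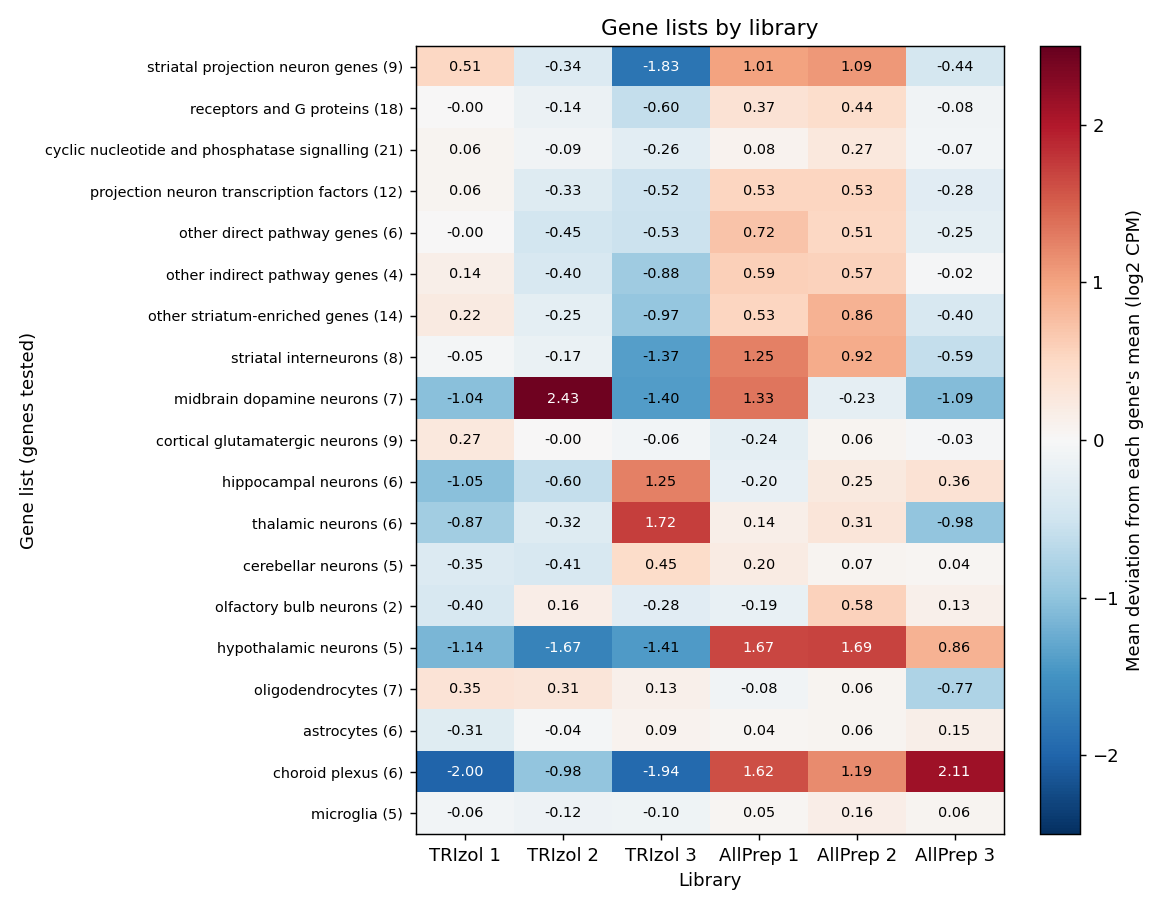
Mean deviation from each gene's mean over the 6 libraries (log2 CPM, colour and printed value) for each gene list (rows, genes tested in parentheses) in each library (columns). The striatal lists share their low values in TRIzol replicate 3, where the thalamic and hippocampal lists are high, and the choroid plexus list separates the methods.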

How the data were processed

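RNA of mouse brain was measured in 6 libraries, 3 per extraction method, prepared by T7 in vitro transcription and sequenced as paired reads of 150 bases, per the labels' protocols. The authors deposited raw counts per gene; per the submitters' processing notes reads were handled with STAR 2.7.9a, featureCounts, cutadapt, FastQC 0.11.9 and limma 3.60.6 on GRCm39, with settings not given in the sources used here. Of 22692 rows, 108 that repeated an Ensembl ID with identical counts were removed. In each library 64.2% to 70.9% of counts from 1 to 20 were even, a pattern that counting each read of a pair would give, and an alternative halved them.

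Genes were tested with edgeR 4.0.16 (filterByExpr, TMM, quasi-likelihood F-test, Benjamini-Hochberg over 16325 genes, two-sided, threshold 0.05) in R 4.3.3; intervals came from limma-trend (limma 3.58.1, prior count 2). The SE is the fold change divided by the square root of F. On simulated counts of this comparison (16149 genes), 55.2% of genes changed 2-fold and 89.4% of those changed 4-fold were recovered. The changed genes were drawn from all tested genes. The square root of the edgeR dispersion had a median of 0.47 for the 9 genes and 0.13 over all tested genes. These rates therefore do not give the power for the 9 genes, which was not measured. Exon lengths are GENCODE vM21 exon unions, used for length only. Named genes were the 9 members, in each pathway list the 2 most abundant and the 2 of smallest p, the 2 most abundant in each list of other cells, and the 8 most similar in pattern; others are named with their values or after these were seen. The result for 1 gene that the rule named is not reported here. The members and lists were chosen with earlier results of these data known. Alternatives were DESeq2 1.42.0, its size factors, library size alone, other filters, limma-voom, a block for replicate number, and leaving out each library.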

Additional observations from a re-analysis of the deposited data

How the results depend on the processing

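All 9 genes kept a positive log2 fold change in each of 14 alternative fits: from 0.38 to 2.24 with a library left out and from 0.76 to 1.69 in the 8 others. The number of the 9 genes past the threshold was 0 in the main analysis and with any library left out, and 1 (Adcy5) with DESeq2 (adjusted p = 0.012) and with the replicate block (adjusted p = 0.042). With the block the other 8 genes had edgeR adjusted p from 0.058 to 0.090, against 0.23 to 0.49 in the main fit. The adjusted p of Adcy5 ran from 0.012 to 0.265 over the alternatives. Over all genes, 621 passed, against 2095 with DESeq2, 236 with the replicate block (1.45% of those tested) and 2 to 205 with a library left out (fewest without TRIzol replicate 2). No label says that replicate numbers mark a shared animal or day, so the numbers were not treated as pairs. Same-numbered libraries did not deviate together in every pair (r = -0.048, 0.0063 and 0.16 across 16325 genes for numbers 1, 2 and 3). AllPrep replicates 1 and 2 correlated better with another number than with their own. Deviations were taken from the mean of only 3 libraries per method, which limits what these correlations can show. They rest on all genes. The mean deviation of the 9 genes was lowest in replicate 3 of both methods (-1.83 in TRIzol, -0.44 in AllPrep). Their SEs were smaller with the block, as for Drd1 (0.22 against 0.57 in the main fit). The log2 difference of the Drd1 to Drd2 ratio ranged from -0.07 (without AllPrep replicate 3, reversed) to 0.45 with a library left out, that of Tac1 to Penk from -0.46 to -0.17, and that of the pathway index from -0.48 to 0.0032 (without AllPrep replicate 2). Within replicate numbers the 2 ratios differed by 0.23 and -0.36 (exact sign-flip test, p = 0.25 and 0.5, where 0.25 is the smallest possible). Tacr1 passed in all 8 of the other fits but in 0 of 6 with a library left out. The cause of these changes was not tested. Depth limits Adora2a most, at 102 counts in TRIzol replicate 3.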

Other observations

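Receptors for the peptides and for dopamine outside the 9 genes also varied between libraries; the genes in this paragraph were picked from the lists after their values were seen. Drd3, the D3 dopamine receptor of the ventral striatum, had 144 and 25 counts in AllPrep replicates 1 and 2 and 4 to 6 counts in the other 4 libraries. Oprm1, the mu opioid receptor, had 0.711, 3.63 and 1.27 CPM in TRIzol replicates 1 to 3 and 5.75, 4.04 and 5.30 CPM in AllPrep replicates 1 to 3. These did not overlap, as for 33.1% of all tested genes, and the difference did not pass (adjusted p = 0.14 in edgeR). Oprk1, the kappa opioid receptor on which dynorphin acts, was lowest in TRIzol replicate 3 (2.85 CPM) and AllPrep replicate 3 (9.18 CPM), the libraries in which the 9 genes were low. Drd5, the second receptor of the D1 class, was also lowest in replicate 3 of each method. Its means were 2.29 ± 0.777 CPM in TRIzol and 2.10 ± 0.363 CPM in AllPrep (SD, n = 3 each), a difference smaller than its spread. Drd4 was instead highest in TRIzol replicate 3, with 0.246, 0.0766 and 0.548 CPM in TRIzol replicates 1 to 3, all low values. Tacr3 and Oprd1 were lowest in replicate 3 of each method. However, Tacr3 was highest in TRIzol replicate 2 (17.3 CPM), and Oprd1 ran only from 14.5 to 22.9 CPM. Lhx8 and Chat, genes of cholinergic neurons, were lowest in replicate 3 of each method: Lhx8 had 0.547, 0.102 and 0.0219 CPM in TRIzol replicates 1 to 3 and 9.30, 3.08 and 0.520 CPM in AllPrep replicates 1 to 3. Chat had 2.22, 2.32 and 0.307 CPM and 11.4, 8.47 and 0.600 CPM in the same order.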
